A study of Mus musculus with 6 samples.

Results

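The variable segments of the immunoglobulin kappa light chain (Igkv) were followed as a repertoire, segment by segment and family by family, in RNA of colonic lamina propria cells. They were taken as every gene whose symbol begins with Igkv and which GENCODE classes as a functional variable gene, and 100 of the 55401 genes in the deposited tables met that rule. The number before the hyphen of the symbol places each in 1 of 20 families. Family 4 was the largest with 26 segments, followed by families 1 and 8 with 10 each and families 3 and 6 with 9 each, and 7 families held a single segment. Values were FPKM, a fragment count per unit of gene length and of library total, so levels of different segments could be set side by side. A usage share is the FPKM of a segment or family as a percent of the summed FPKM of the 100 segments in the same library.

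A B cell builds its light chain gene by joining a single variable segment to a joining segment next to the constant gene Igkc, and the daughters of that cell keep the join. Plasma cells, which descend from B cells and secrete antibody, transcribe the joined gene at a very high rate, and in the gut most of them make IgA that is carried into the lumen. The abundance of a segment in bulk RNA therefore reflects the summed output of all the cells that carry it. This holds as far as fragments were assigned to the right segment, and more cells cannot be told apart here from more RNA per cell.

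The lamina propria is the connective tissue beneath the gut epithelium. Cells were isolated from the colon of male Apc Min/+ mice 5 to 6 weeks old, a strain with a truncated copy of the tumour suppressor gene Apc beside a normal one, which develops intestinal adenomas. Of the 6 libraries, 3 came from mice gavaged on alternate days with vehicle, 2% Tween 80, and 3 from mice that received atorvastatin, an inhibitor of cholesterol synthesis, at 20 mg/kg. All 6 carried the same genotype, and no wild-type mice are analysed here. Nothing in the labels ties each library to an animal of its own, and the p-values below reflect only how much these libraries varied, which may be technical variation. FPKM summed to between 355787 and 456064 per library, and the number of fragments behind it is unknown. Vehicle library 3 stood slightly apart: over genes other than kappa V segments its mean Pearson r with the other libraries was 0.948, against 0.960 to 0.964 for the others.

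The germline sequences below belong to leading segments by mean FPKM, together with Igkv4-58 and Igkv6-14. Igkv4-58, Igkv6-14 and Igkv8-28 were far more abundant in a single library than in the others. Each sequence runs 5′ to 3′ and begins 30 bases before the codon of the cysteine that closes the last framework region. The capitals after that codon are the bases that the segment contributes to the third complementarity-determining region, the loop in which it is joined to a J segment. Sequences are the coding parts of GENCODE release 21 transcripts (GRCm38/mm10), not sequences of expressed antibodies.
Igkv1-110: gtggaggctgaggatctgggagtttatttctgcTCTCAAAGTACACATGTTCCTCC
Igkv1-117: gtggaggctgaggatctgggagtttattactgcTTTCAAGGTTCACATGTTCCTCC
Igkv10-96: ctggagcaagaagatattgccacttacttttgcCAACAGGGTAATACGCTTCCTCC
Igkv6-15: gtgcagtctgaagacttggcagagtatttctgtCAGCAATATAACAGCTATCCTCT
Igkv8-28: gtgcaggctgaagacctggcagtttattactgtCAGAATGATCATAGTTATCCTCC
Igkv9-120: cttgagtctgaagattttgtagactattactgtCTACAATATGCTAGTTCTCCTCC
Igkv3-2: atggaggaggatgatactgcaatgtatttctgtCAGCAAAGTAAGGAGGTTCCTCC
Igkv5-43: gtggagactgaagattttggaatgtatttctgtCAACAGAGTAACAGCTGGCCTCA
Igkv4-59: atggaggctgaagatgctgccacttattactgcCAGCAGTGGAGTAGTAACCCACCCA
Igkv4-58: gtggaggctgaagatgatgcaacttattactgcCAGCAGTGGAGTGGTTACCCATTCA
Igkv6-14: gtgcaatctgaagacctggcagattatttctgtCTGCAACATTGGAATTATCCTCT
The capitals differ in every one of these 11 segments. They do not tell each of them from the rest of the 100. Igkv9-120 shares its capitals with Igkv9-129, Igkv5-43 with Igkv5-45 and Igkv4-58 with Igkv4-51. Igkv4-59 shares them with Igkv4-72, Igkv4-68 and Igkv4-71. Of the 100 segments, 67 contribute 23 bases after the cysteine codon, and these held 73.2% to 91.3% of usage across the 6 libraries. Another 21 contribute 25 bases, as Igkv4-59 and Igkv4-58 do, and held 5.60% to 23.2%. The letters CCTCC end 42 of the 100 segments on their own strand, which is 42% of segments and 53.8% to 74.2% of usage. That usage includes Igkv1-110, Igkv1-117 and Igkv10-96, which had the highest mean levels of all segments. All 100 have 2 exons and an ATG start in the annotation.

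Kappa V segments were very abundant. Their summed FPKM was 37060.5, 39618 and 31298 in vehicle libraries 1 to 3 and 25839, 56755 and 25094 in atorvastatin libraries 1 to 3. Atorvastatin library 2 had the highest sum and the other 2 atorvastatin libraries the lowest, so that the vehicle libraries lay between them. As a percent of all FPKM the segments made up 8.71 ± 1.14 (SD, n = 3) in the vehicle group and 8.78 ± 3.18 (SD, n = 3) in the atorvastatin group. Between 87 and 93 of the 100 segments reached 1 FPKM in a library, and between 35 and 54 reached 100 FPKM. Only Igkv1-35 was listed at 0 in all 6 libraries. The 60 Igkv pseudogenes at the same locus, which cannot encode a chain, summed to between 13.0 and 34.7 FPKM, or 0.0326% to 0.108% of the kappa V sum.

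Family 1 ranked first in all 6 libraries. Its share was 20.5%, 30.5% and 46.3% in vehicle libraries 1 to 3 and 25%, 34.5% and 30.2% in atorvastatin libraries 1 to 3. The group ranges overlapped, and both the lowest and the highest value came from vehicle. Its mean was 32.4% ± 13.1 (SD, n = 3) in the vehicle group and 29.9% ± 4.80 (SD, n = 3) in the atorvastatin group, from 10% of the segments.

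Family 4, with 26% of the segments, held a mean of 14.5% of usage over the 6 libraries. Its share was 11.4%, 12.9% and 14.3% with vehicle and 23.4%, 5.81% and 19.0% with atorvastatin. The vehicle libraries lay close together, and the atorvastatin libraries lay on both sides of them. No family 4 segment held more than 38.0% of the family in any library, and a different segment led it in each of the 6: Igkv4-72, Igkv4-55 and Igkv4-70 with vehicle, and Igkv4-58, Igkv4-74 and Igkv4-59 with atorvastatin.

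Families 6, 8 and 10 followed. The share of family 6 was 13.5%, 8.81% and 8.94% with vehicle and 15.8%, 9.04% and 14% with atorvastatin. Family 6 also changed its leading segment in every library, from Igkv6-14, Igkv6-25 and Igkv6-17 with vehicle to Igkv6-20, Igkv6-23 and Igkv6-15 with atorvastatin. The share of family 8 was 15.4%, 10.1% and 4.37% with vehicle and 6.79%, 8.66% and 7.99% with atorvastatin. Its 3 atorvastatin values fell inside the vehicle range. The share of family 10, which has 3 segments, was 10.2%, 13.9% and 6.09% with vehicle and 3.43%, 12.3% and 3.77% with atorvastatin. Igkv10-96 led family 10 in all 6 libraries and held 74.8% to 93.9% of it.

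The remaining families were smaller. Families 3, 5, 12, 9 and 2 had mean shares over the 6 libraries of 5.56%, 4.47%, 3.34%, 2.87% and 2.61%. Family 3 had shares between 3.82% and 7.07%. Family 9 ranged from 0.774% to 5.23%, and Igkv9-120 led it in every library. Family 15, which consists of Igkv15-103 alone, held 4.66% of vehicle library 1 and between 0.225% and 1.01% of the other 5 libraries. Families 14, 16, 17, 19 and 13 had mean shares of 1.39%, 1.21%, 1.14%, 1.07% and 0.598%, and families 11, 7, 18 and 20, each a single segment, stayed under 0.1% in each library.

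No family separated the groups in summed FPKM: the ranges of the 3 vehicle and the 3 atorvastatin libraries overlapped in all 20. In usage share the ranges failed to overlap in family 18 alone, whose single segment Igkv18-36 took 0.00540%, 0.00464% and 0.00527% with vehicle and 0.00375%, 0.00446% and 0.00375% with atorvastatin. At 0.94 to 2.53 FPKM it was close to the filter on low values. Since shares of a library sum to 100%, a segment that is high in a library lowers the shares of all others there.

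**Figure D1:**
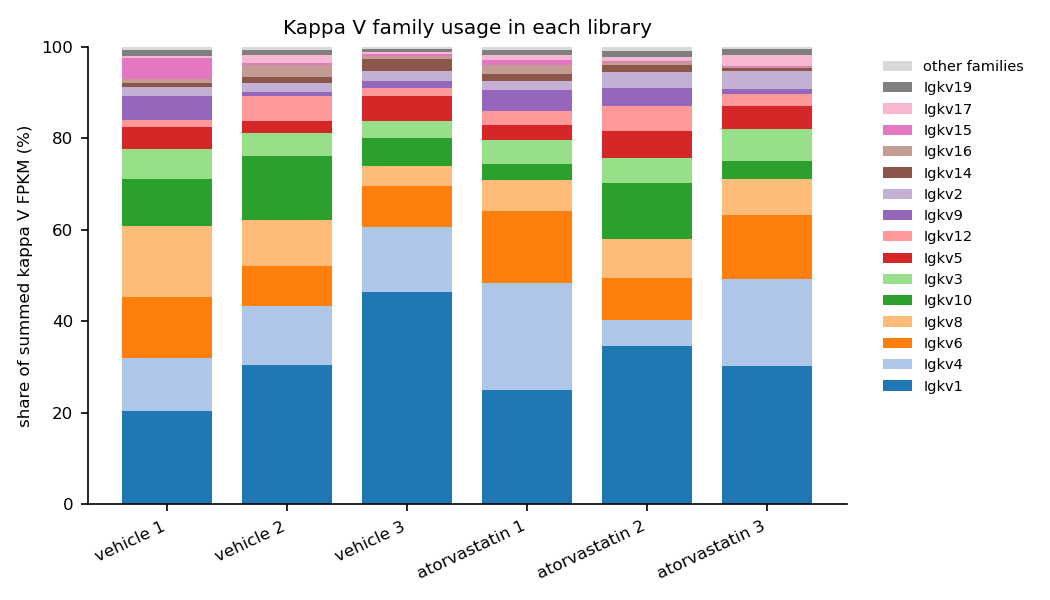
Stacked bars give the share of each kappa V family in the summed kappa V FPKM (vertical axis, percent) for each of the 6 libraries (horizontal axis), with the families under a mean of 1% grouped as other families. Family 1 is the largest block in every library and reaches 46.3% in vehicle library 3, while family 4 ranges from 5.81% to 23.4% within the atorvastatin group.

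Within these families a few segments dominated. Igkv1-110 (ENSMUSG00000093861, chr6:68270485-68271267) had 3143, 2598 and 7793 FPKM in vehicle libraries 1 to 3 and 3953, 11129 and 3918 in atorvastatin libraries 1 to 3. Vehicle library 3 and atorvastatin library 2 were high and the groups overlapped. Its usage share ran from 6.56% to 24.9%, and it was the most abundant segment in 4 libraries. Igkv1-117 (ENSMUSG00000094335, chr6:68121046-68121827) had 4126, 8271 and 5644 FPKM with vehicle and 2239.8, 7967 and 3332 with atorvastatin. It was the most abundant segment in vehicle library 2 and the second in the other 5. Igkv10-96 (ENSMUSG00000094420, chr6:68631963-68632442) had 2828, 4553 and 1775 FPKM with vehicle and 776, 6543 and 748 with atorvastatin. Its level in atorvastatin library 2 was 8.74 times that in atorvastatin library 3. These 3 segments were the only ones among the 10 most abundant of all 6 libraries.

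Below them the order changed from library to library. Over the 6 lists of the 10 most abundant segments, 19 segments appeared in a single list, 7 in 2 lists and 3 in 3 lists. The clearest case was Igkv8-28 (ENSMUSG00000094356, chr6:70143593-70144166), the most abundant segment of vehicle library 1. It had 4850.0, 165 and 26.7 FPKM with vehicle and 38.6, 376 and 612 with atorvastatin. Vehicle library 1 exceeded the next library by 7.92 times and vehicle library 3 by 182 times. Igkv6-14 showed a similar profile, with 2665, 73.1 and 10.1 FPKM with vehicle and 153, 310.4 and 61.9 with atorvastatin. Igkv4-58, named after its values were seen, was the third most abundant segment of atorvastatin library 1. It had 10.2, 71.1 and 17.2 FPKM with vehicle and 1703, 14.7 and 75.9 with atorvastatin, a level 22.4 times that of the next library.

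Other leading segments were spread more evenly. Igkv6-15 had 1018, 577 and 1077 FPKM with vehicle and 390.1, 1743 and 1819 with atorvastatin. Igkv5-43 had 1176, 380.3 and 679 FPKM with vehicle and 363, 850.1 and 646 with atorvastatin. Both were at 363 FPKM or more in every library, and their groups overlapped. Igkv2-137, the leading segment of family 2 and the farthest from Igkc, varied little: its highest library was 2.53 times its lowest, and its shares lay between 0.987% and 1.73%. Its mean was 451 ± 80.0 FPKM (SD, n = 3) in the vehicle group and 451 ± 249 (SD, n = 3) in the atorvastatin group. Igkv9-120, Igkv3-2, Igkv6-23, Igkv4-59, Igkv4-72, Igkv5-48, Igkv6-17 and Igkv8-30 completed the 15 most abundant segments, with mean levels over the 6 libraries between 554 and 955 FPKM. In each of these 8 segments the group ranges of FPKM overlapped.

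**Figure D2:**
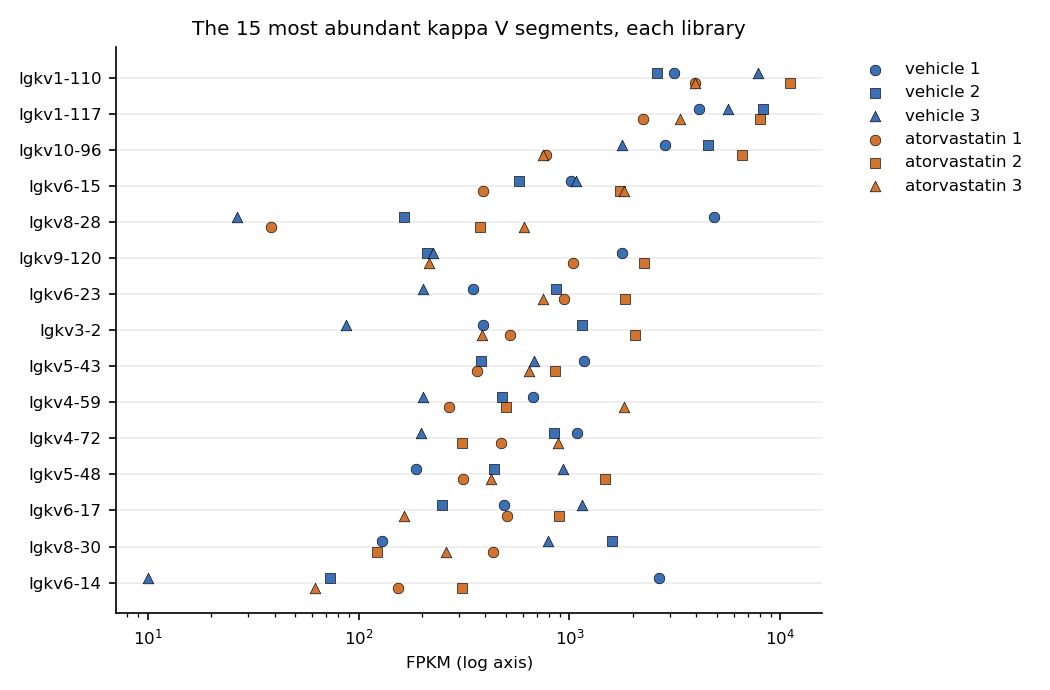
Points give the FPKM (horizontal log axis) of the 15 segments with the highest mean over the 6 libraries (vertical axis), blue for vehicle and orange for atorvastatin, with a marker shape for each replicate number. Igkv1-110, Igkv1-117 and Igkv10-96 lie at 748 FPKM or more in each library, while Igkv8-28 and Igkv6-14 stand out in vehicle library 1 alone, at 4850.0 and 2665 FPKM.

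The concentration of usage differed between libraries as well. The effective number of segments, the inverse of the summed squared shares, would be 100 if all segments were used equally. It was 17.0, 13.9 and 9.25 in vehicle libraries 1 to 3 and 20.3, 12.2 and 16.2 in atorvastatin libraries 1 to 3. Atorvastatin library 1 had the most even usage and vehicle library 3 the most uneven, and the groups overlapped. The group means were 13.4 ± 3.90 (SD, n = 3) in the vehicle group and 16.2 ± 4.08 (SD, n = 3) in the atorvastatin group. The most abundant segment alone held 13.1%, 20.9% and 24.9% with vehicle and 15.3%, 19.6% and 15.6% with atorvastatin. The 10 most abundant segments held between 54.8% and 71.4%. The heavy chain V segments, which pair with the light chains, had effective numbers of 11.7, 9.73 and 7.05 with vehicle and 17.3, 9.08 and 10.6 with atorvastatin. Atorvastatin library 1 was also the most even for heavy chains and vehicle library 3 the most uneven.

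Kappa V usage was about as alike between the groups as within them. Shared usage, the sum over segments of the smaller of the shares of 2 libraries, averaged 59.3% within groups (49.2% to 66.2% over 6 pairs) and 58.9% between groups (54.0% to 64.5% over 9 pairs). Summed by family it averaged 76.7% within and 78.2% between groups. Pearson's r of log2(FPKM + 1) across the 91 segments kept for testing averaged 0.710 within and 0.718 between groups. It averaged 0.961 and 0.960 for all other genes kept. The heavy V segments had mean r values of 0.672 within and 0.668 between groups. Segments of a repertoire are not independent, and these correlations are descriptions.

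The spread between libraries of the same group was far larger for kappa V segments than for other genes. A gene was kept for testing where it had at least 1 FPKM in at least 3 libraries, which 91 of the 100 segments and 13590 genes in all did. Each of the 91 reached 1 FPKM in at least 1 library of each group. Igkv4-71, Igkv1-99 and Igkv18-36 did so in all 3 vehicle libraries but in only 1 atorvastatin library. Igkv7-33 did so in all 3 atorvastatin libraries but in only 1 vehicle library. For such segments the libraries of a single group were enough to meet the rule. The median within-group SD on the log2(FPKM + 1) scale was 1.35 over the 91 segments and 0.19 over all genes tested. Heavy V segments had a median of 1.40. Summing segments into the 20 families lowered the median SD to 0.91. The ratio of the highest to the lowest library had a median of 12.7 over the 91 segments and 1.59 over all genes tested, and it was 10 or more in 55 segments (60.4%).

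**Figure D3:**
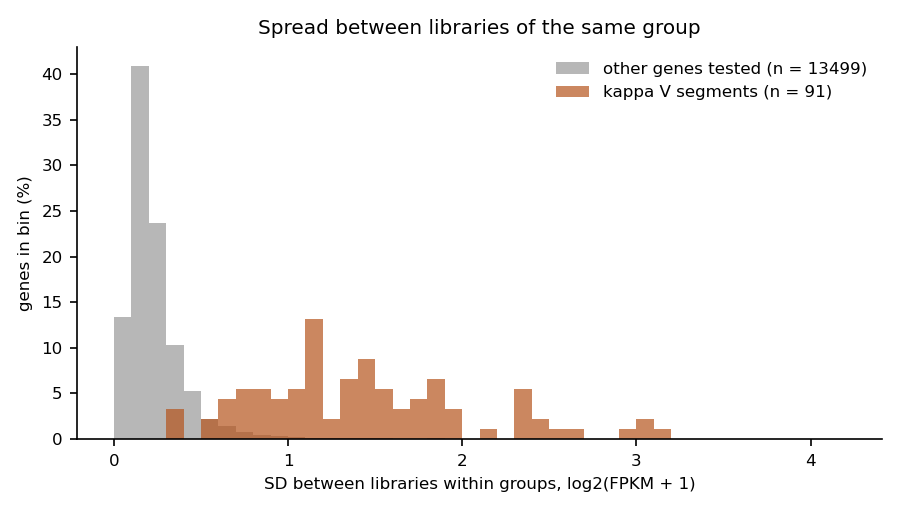
Histograms give the SD between libraries within groups on the log2(FPKM + 1) scale (horizontal axis) as a percent of genes in each bin (vertical axis), for the 91 kappa V segments kept and for the other genes tested. The kappa V segments centre near their median of 1.35, while most other genes lie close to 0.19.

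Many segments peaked in a single library. The highest library was at least 3 times the next in 26 of the 91 segments (28.6%), against 0.567% of all genes tested. These peaks fell in 5 of the 6 libraries: 4, 7 and 3 segments in the vehicle libraries, 6 each in atorvastatin libraries 1 and 2, and none in atorvastatin library 3. They included Igkv15-103 in vehicle library 1, at 6.63 times the next, and Igkv12-44 in atorvastatin library 2, at 3.60 times. Igkv3-9, named after its values were seen, had 103 FPKM in vehicle library 2 and between 1.22 and 6.27 FPKM in the other libraries. Atorvastatin library 2 was the highest library for 29 of the 91 segments, and it also had the highest summed kappa V FPKM.

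The comparison of atorvastatin with vehicle, the only one in the design, was made with limma on log2(FPKM + 1) over all 13590 genes. No kappa V segment passed a Benjamini-Hochberg false discovery rate of 0.05: 0 of 91 segments were called, and 0.0% of all genes tested. At an unadjusted p under 0.05, 2 segments were higher with atorvastatin (2.20%, against 3.13% of all genes tested) and 6 were lower (6.59%, against 4.04%). Of the 91 differences 42 were positive and 49 negative, with a median of -0.09, and the median of all genes tested was -0.02. The range of the differences was -3.59 to 2.81.

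In FPKM the groups did not overlap in 4 of the 91 segments, all lower with atorvastatin (4.40%, against 8.85% of all genes tested). The count higher with atorvastatin was 0, against 5.53% of all genes tested. These 4 were Igkv4-70, Igkv6-13, Igkv1-99 and Igkv4-71. Their germline ends, with the bases after the cysteine codon again in capitals, are printed here to identify them, since their share lies below that of all genes tested and is no result about kappa V segments. Igkv3-3, which was not kept for testing, also did not overlap, with 0.83, 4.05 and 2.10 FPKM with vehicle and 0.64, 0.33 and 0 with atorvastatin.
Igkv4-70: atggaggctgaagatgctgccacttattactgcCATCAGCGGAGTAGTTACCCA
Igkv6-13: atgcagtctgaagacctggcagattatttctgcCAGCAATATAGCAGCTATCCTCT
Igkv1-99: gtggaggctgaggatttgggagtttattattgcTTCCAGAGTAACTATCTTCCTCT
Igkv4-71: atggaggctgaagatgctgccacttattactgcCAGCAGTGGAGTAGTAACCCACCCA
The capitals of Igkv4-71 are identical to those of Igkv4-59, shown further above, and also to those of Igkv4-72 and Igkv4-68. The 4 segments belong to 3 families.

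Igkv4-70 (ENSMUSG00000076547, chr6:69267888-69268443) was the most abundant of the 4. It had 99.3, 584 and 1350.2 FPKM with vehicle and 7.60, 60.5 and 84.1 with atorvastatin, and vehicle library 1 lay close to atorvastatin library 3. The log2 difference was -3.59 (SE 1.17) and the limma adjusted p was 0.692. In usage share the groups overlapped, with 0.268% in vehicle library 1 and 0.335% in atorvastatin library 3. Igkv6-13 (ENSMUSG00000076594, chr6:70457501-70458036) had 196, 106 and 68.3 FPKM with vehicle and 2.92, 39.5 and 49.0 with atorvastatin. Its log2 difference was -2.51 (SE 0.97) and its limma adjusted p 0.692. The usage shares of Igkv6-13 did not overlap.

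Igkv1-99 (ENSMUSG00000076525, chr6:68541644-68542422) had 18.3, 12.04 and 13.2 FPKM with vehicle and 0.50, 0.19 and 8.51 with atorvastatin. The first 2 atorvastatin libraries were near 0 and the last lay close to the vehicle values. Its log2 difference was -2.57 (SE 0.74), with a limma adjusted p of 0.692. In usage share its groups overlapped, with 0.0304% in vehicle library 2 and 0.0339% in atorvastatin library 3. Igkv4-71 (ENSMUSG00000073028, chr6:69243158-69243688) had the smallest p of the 91 segments. It had 3.38, 2.92 and 4.47 FPKM with vehicle and 0.29, 0.54 and 1.13 with atorvastatin, a log2 difference of -1.49 (SE 0.22) and a limma adjusted p of 0.518. Its share of kappa V usage was at most 0.0143% in any library and did not overlap between the groups. The fit estimates the spread of a gene partly from its own libraries, and at these low values the log2(FPKM + 1) scale understates ratios.

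The other segments among the 6 with the smallest p overlapped between the groups in FPKM. Igkv17-127 (ENSMUSG00000076508, chr6:67861153-67861659) had 97.4, 192 and 92.3 FPKM with vehicle and 184, 409 and 318 with atorvastatin. Vehicle library 2 lay just above atorvastatin library 1, and the log2 difference was 1.26 (SE 0.39, limma adjusted p = 0.692). Its usage shares did not overlap, at 0.263%, 0.484% and 0.295% with vehicle and 0.711%, 0.721% and 1.27% with atorvastatin. Igkv3-5 (ENSMUSG00000095335, chr6:70663275-70663895) had 97.1, 172 and 61.8 FPKM with vehicle and 65.7, 53.4 and 34.1 with atorvastatin. The log2 difference was -1.02 (SE 0.40), with 0.692 as the limma adjusted p. Igkv6-23, among the 15 most abundant, had 348, 863 and 201 FPKM with vehicle and 941, 1830.1 and 749 with atorvastatin. Its log2 difference was 1.47 (SE 0.58, limma adjusted p = 0.692), and vehicle library 2 exceeded atorvastatin library 3. Its usage shares did not overlap, at 0.940%, 2.18% and 0.643% with vehicle and 3.64%, 3.22% and 2.98% with atorvastatin. The shares of Igkv3-5 overlapped. Overlap in share was not counted over all segments.

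The most abundant segments had differences near the middle of the range, with wide intervals. The log2 difference was 0.48 (SE 0.61, 95% interval -0.96 to 1.92) for Igkv1-110, with a limma adjusted p of 0.856. It was -0.57 (SE 0.55, 95% interval -1.87 to 0.74) for Igkv1-117, with a limma adjusted p of 0.813. For Igkv10-96 it was -0.86 (SE 0.88, 95% interval -2.95 to 1.22), with a limma adjusted p of 0.822. Igkv8-28 and Igkv6-14, which each peaked in vehicle library 1, had differences of -0.43 (SE 1.92) and 0.15 (SE 1.85). The median width from the estimate to the end of the 95% interval was 2.06 log2 units over the 91 segments and 0.36 over all genes tested. The interval lay within 1 log2 unit of 0 for 2 of the 91 segments, against 89.8% of all genes tested, and within 2 units for 21. For the other 89 segments the interval took in changes of 2-fold or more on this scale, so the absence of calls does not show that usage was alike in the groups.

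**Figure D4:**
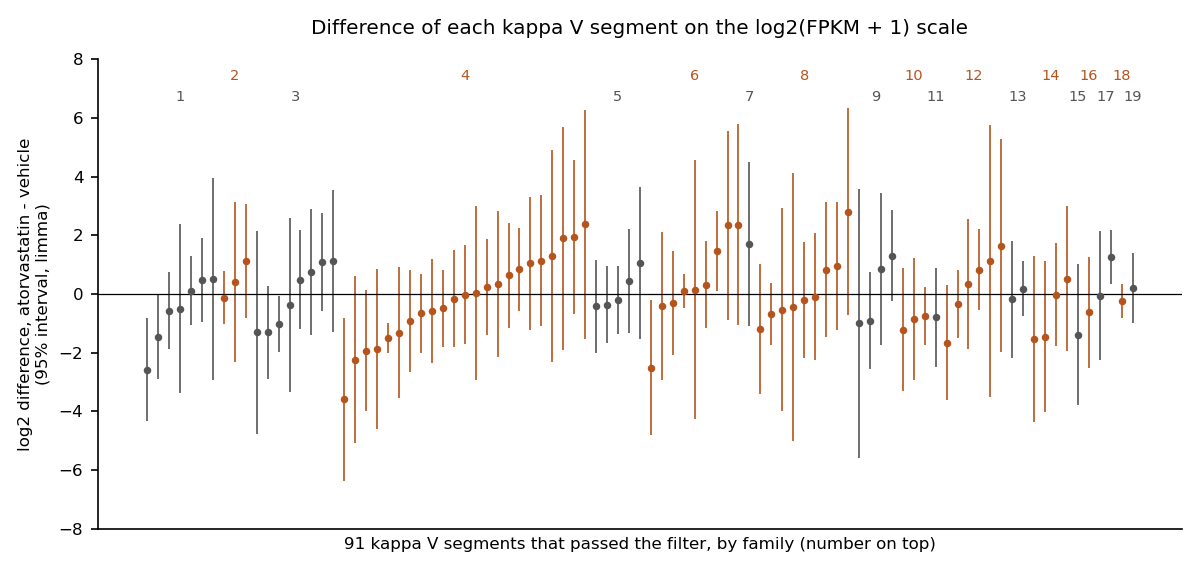
Points give the log2 difference, atorvastatin minus vehicle, on the log2(FPKM + 1) scale (vertical axis) for the 91 segments kept, ordered by family and then by value (horizontal axis, family number on top), and lines give the 95% interval from limma. Most intervals include 0, and within the larger families the differences run from well below to well above 0.

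Usage was uneven along the locus. The 100 segments span 3.15 Mb of chromosome 6 in GRCm38/mm10 (chr6:67555497-70704177), upstream of Igkc at chr6:70726435-70726966. The nearest segment lies 22.6 kb from Igkc and the farthest 3171 kb. The 29 segments more than 2 Mb from Igkc held a mean of 49.9% of usage (41.1% to 60.3%), the 31 segments between 1 and 2 Mb held 16.6% (8.18% to 25.7%), and the 40 segments within 1 Mb held 33.5% (24.2% to 41.9%). Igkv1-110 and Igkv1-117 lie 2456 and 2605 kb from Igkc and Igkv10-96 lies 2094 kb away, so the 3 segments that led in all libraries belong to the distal class. Their mean usage shares were 15.1%, 14.3% and 7.05%, so these 3 made up most of the distal share. Igkv8-28, at 583 kb, is in the proximal class.

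Some kappa segments lie in the orientation of Igkc and join a J segment by deleting the DNA between. The rest lie in the opposite orientation and join by inversion. Igkv1-110 and Igkv1-117, with mean shares of 15.1% and 14.3%, lie in the orientation of Igkc. The 38 segments in that orientation held a mean of 49.6% of usage (42.7% to 61.7%). Their share was 50.7% ± 9.83 (SD, n = 3) in the vehicle group and 48.5% ± 4.14 (SD, n = 3) in the atorvastatin group, a difference smaller than the spread between the libraries. The distal class held 52.8% ± 7.84 (SD, n = 3) in the vehicle group and 47.0% ± 9.15 (SD, n = 3) in the atorvastatin group, again within the spread. Orientation was uniform in some families and mixed in others: all 26 family 4 segments are inverted, all 9 family 3 segments are not, and 7 of the 10 family 1 segments lie in the orientation of Igkc.

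**Figure D5:**
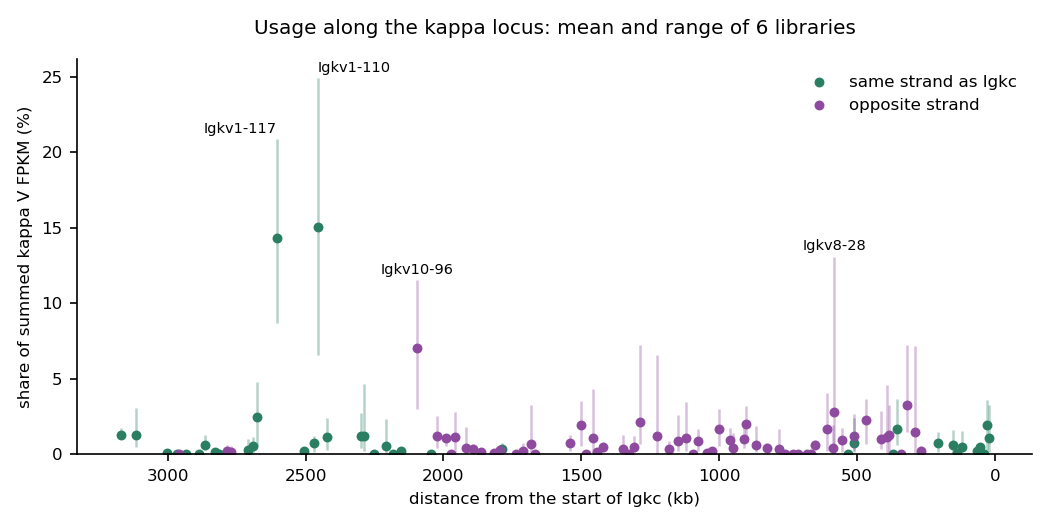
Points give the mean usage share over the 6 libraries (vertical axis, percent of summed kappa V FPKM) of each of the 100 segments against its distance from the start of Igkc (horizontal axis, kb, Igkc to the right), lines run from the lowest to the highest library, and colour gives the strand. Igkv1-110 and Igkv1-117 rise above 20% in at least 1 library, and the long line of Igkv8-28 shows its peak of 13.1% beside a mean of 2.81%.

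Many segments are close copies of each other, so fragments could be shared between them in the authors' counting. The sources used here do not give that step. Over coding sequences the median identity was 89.1% for the 532 pairs within a family and 63.2% for the 4418 pairs between families. Of the 100 segments 46 were at least 95% identical to another, and they held 64.6% to 73.0% of usage. Levels of those segments are uncertain to the extent that fragments were split. The 2 leading segments are such a pair, with 97.2% identity over 359 coding bases. Their last 300 coding bases follow, with the 10 differing bases in capitals.
Igkv1-110: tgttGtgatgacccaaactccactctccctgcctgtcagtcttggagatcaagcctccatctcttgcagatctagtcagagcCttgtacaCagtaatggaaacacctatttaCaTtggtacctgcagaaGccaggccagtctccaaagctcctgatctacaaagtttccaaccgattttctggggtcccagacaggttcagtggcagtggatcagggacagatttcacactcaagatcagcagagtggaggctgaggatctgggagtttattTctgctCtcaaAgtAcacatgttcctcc
Igkv1-117: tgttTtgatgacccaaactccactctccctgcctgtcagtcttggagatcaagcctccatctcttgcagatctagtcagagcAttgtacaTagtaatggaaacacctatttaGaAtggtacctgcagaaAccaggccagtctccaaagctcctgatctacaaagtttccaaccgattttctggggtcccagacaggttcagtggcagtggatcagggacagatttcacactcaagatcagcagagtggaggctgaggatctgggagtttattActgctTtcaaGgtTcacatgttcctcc
Despite this likeness the ratio of Igkv1-117 to Igkv1-110 ran from 0.567 to 3.18, and they peaked in different libraries.

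A wider split was seen in family 8. Igkv8-19, named after its values were seen, is 97.5% identical to Igkv8-28 and has the same length of 365 coding bases. The last 300 bases of both are shown for comparison, with the 7 that differ in capitals.
Igkv8-28: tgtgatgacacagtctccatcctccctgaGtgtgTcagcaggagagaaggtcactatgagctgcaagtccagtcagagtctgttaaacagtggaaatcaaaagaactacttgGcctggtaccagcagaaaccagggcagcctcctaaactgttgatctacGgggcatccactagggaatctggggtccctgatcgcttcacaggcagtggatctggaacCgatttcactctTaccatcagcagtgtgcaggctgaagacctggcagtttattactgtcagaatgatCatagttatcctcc
Igkv8-19: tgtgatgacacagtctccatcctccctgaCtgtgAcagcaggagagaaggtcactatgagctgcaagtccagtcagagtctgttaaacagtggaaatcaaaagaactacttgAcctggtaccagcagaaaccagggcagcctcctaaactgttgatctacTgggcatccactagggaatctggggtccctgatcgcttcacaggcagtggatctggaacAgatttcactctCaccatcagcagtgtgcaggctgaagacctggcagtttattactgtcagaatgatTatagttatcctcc
Igkv8-19 had 120 FPKM in vehicle library 1, where Igkv8-28 had 4850.0 FPKM, and 1834 FPKM in atorvastatin library 2, where Igkv8-28 had 376 FPKM. The ratio of Igkv8-19 to Igkv8-28 ran from 0.0247 to 21.1. The high level of Igkv8-28 in vehicle library 1 was thus not matched by its close copy.

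Of the 9 pairs with at least 97% identity, 1 pair peaked in the same library. In that pair, Igkv6-29 and Igkv6-20, named after their values were seen and 98.6% identical, Igkv6-29 had 5.43, 133 and 6.89 FPKM with vehicle and 495, 25.5 and 70.1 with atorvastatin. Igkv6-20 had 17.5, 377.5 and 23.5 FPKM with vehicle and 1175, 90.2 and 212 with atorvastatin. Their ratio stayed between 0.283 and 0.421 in all 6 libraries, while the highest library was 91.2 times the lowest for Igkv6-29. Whether fragments were shared between them was not tested. Of the 40 pairs with at least 95% identity, 7 peaked in the same library.

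Other genes of the pathway were measured in the same libraries. Igkc, which encodes the constant region of every kappa chain, had 52559.7, 56843 and 55683 FPKM with vehicle and 45478, 79970.1 and 36609 with atorvastatin. Its highest library, atorvastatin library 2, was also that of kappa V. The ratio of summed kappa V FPKM to Igkc FPKM was 0.655 ± 0.0803 (SD, n = 3) in the vehicle group and 0.654 ± 0.0757 (SD, n = 3) in the atorvastatin group. Kappa made up 95.5% to 97.97% of the constant-region FPKM of light chains, the rest being lambda. Of 36 listed genes of the light and heavy constant regions, joining segments, recombination and kappa transcription, 31 were kept and 0 passed in limma, with 0 higher and 1 lower at an unadjusted p under 0.05 and a median difference of 0.02. Rag1 and Rag2, which encode the recombinase that joins the segments, stayed at or below 0.08 FPKM in all libraries.

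Markers of the cells that carry these transcripts were measured beside them. The 14 plasma cell markers summed to 3890.1, 3438 and 1869 FPKM with vehicle and 2707, 4858 and 2328 with atorvastatin. Their most abundant member Jchain, which links IgA and IgM units, was highest in atorvastatin library 2 at 4117 FPKM and lowest in vehicle library 3 at 1397 FPKM. The 14 B cell markers summed to 473, 537 and 416 FPKM with vehicle and 351, 325 and 341 with atorvastatin. These sums did not overlap between the groups. Among single genes, 8.85% of all genes tested lacked overlap and were lower with atorvastatin. In limma 14 of 14 markers had negative differences, 7 with an unadjusted p under 0.05, where 4.04% of all genes tested were lower, and 0 with an adjusted p under 0.05. The kappa V sum was highest in atorvastatin library 2, where the B cell sum was lowest. Over the remaining libraries the kappa V and B cell sums had the same order, highest in vehicle library 2 and lowest in atorvastatin library 3. No marker of either list was at 0 in any library. Markers of other cell types were summed in the same way. The 8 T cell markers summed to 116, 131 and 114 FPKM with vehicle and 104, 111 and 99.2 with atorvastatin, again without overlap. In limma 7 of these 8 had negative differences, and 0 were lower at an unadjusted p under 0.05. The epithelium markers had negative differences in 5 of 5 members kept, with sums of 28.3, 40.6 and 39.8 FPKM with vehicle and 22.0, 42.8 and 18.7 with atorvastatin. The macrophage markers had negative differences in 0 of 8, with sums of 129, 180.3 and 278 FPKM with vehicle and 227, 232 and 214 with atorvastatin. The smooth muscle markers had negative differences in 0 of 5, and 1 was higher at an unadjusted p under 0.05, with sums of 461 to 838 FPKM with vehicle and 591 to 793 with atorvastatin. Of the 6 fibroblast markers 3 had negative differences, and of the 7 germinal centre markers kept 1 did. None of these members passed the limma test over all genes. The part of any of these cell types in the differences between single segments was not tested.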

How the data were processed

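The 6 bulk RNA-seq libraries of colonic lamina propria cells comprise 3 with vehicle and 3 with atorvastatin. The deposited values are FPKM, which the authors scaled by gene length and by library. The submitters' processing notes name FastQC 0.11.2, Bowtie and mm10. The quantifier, annotation and strandedness were not given in the sources used here. The values carry 2 decimals, fragment counts could not be recovered, and the depth is unknown, so no count test was run. Symbols, positions and coding sequences came from GENCODE mouse release 21; all 160 Igkv IDs (100 segments, 60 pseudogenes) had identical positions, and 260 other IDs had no symbol. Replicate numbers were checked for pairing by correlation, which gave no sign of it but cannot exclude it with 3 libraries per group.

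The 13590 genes that reached 1 FPKM in at least 3 libraries entered a limma-trend fit (limma 3.58.1 in R 4.3.3) on log2(FPKM + 1), which understates changes at low values, with Benjamini-Hochberg adjustment over all of them. The fit was tested on simulated data, with changed genes drawn from all genes kept above a low level. Median within-group SD was 0.19 over all genes tested and 1.35 over kappa V segments. That test therefore says little about detecting changes in kappa V segments. Shares, sums and effective numbers are descriptions with no test. Segments were named by rule: the 15 most abundant, the leader of each family, any with at least 10% of a library, and the 6 smallest p. Any other segment was named after its values were seen. The members and lists were chosen with earlier results of these data known.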

Additional observations from a re-analysis of the deposited data

How the results depend on the processing

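The count of kappa V segments called was 0 under every alternative tried except 1. Without atorvastatin replicate 3 a single segment, Igkv1-99, was called (log2 difference -3.52, limma adjusted p = 0.0277). It was 1 of 88 segments in that fit, against 2 of all 13289 genes. Igkv1-99 had 0.50 and 0.19 FPKM in the atorvastatin libraries left, so it met the filter only through the 3 vehicle libraries. The library left out had 8.51 FPKM. Over all genes, 1 of 13340 was called without atorvastatin replicate 1 and 7 of 55401 without the filter. On leaving out 1 library at a time the count of segments called ran from 0 to 1. The alternatives were a pseudocount of 0.1 or 0.5, no filter, at least 1 FPKM in all 6 libraries, a mean of at least 5 FPKM, median-of-ratios scaling, equal sums without immunoglobulin genes, values relative to the kappa V sum, and the replicate number as a block. Under these, 273 values of the 31 named segments tested kept their direction and their side of the threshold.

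With the replicate block 0 segments were called, 5 of 91 were higher and 14 lower at an unadjusted p under 0.05 (369 higher and 483 lower of all 13590 genes in the same fit), and the smallest limma adjusted p of a segment was 0.0733 (Igkv4-70). The correlations of same-numbered libraries' deviations were -0.109, 0.137 and -0.0151, and those of differently numbered libraries ran from -0.162 to 0.192. With so few libraries these values cannot exclude a pairing.

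Leaving out a single library reversed the sign of the log2 difference in 15 of the 31 named segments. The lowest and highest values were -0.0205 and 0.96 for Igkv1-110, -0.0575 and 1.05 for Igkv6-15, -2.10 and 1.63 for Igkv8-28, -0.61 and 0.20 for Igkv5-43, -0.13 and 1.24 for Igkv4-59, -0.92 and 0.31 for Igkv4-72, -0.22 and 1.02 for Igkv5-48, and -0.85 and 0.37 for Igkv6-17. They were -1.62 and 2.33 for Igkv6-14, -0.54 and 0.13 for Igkv2-137, -1.15 and 0.0796 for Igkv16-104, -0.25 and 0.51 for Igkv19-93, -0.30 and 1.53 for Igkv14-111, -1.22 and 0.46 for Igkv13-84, and -1.25 and 0.0064 for Igkv11-125. The difference in effective number ran from 0.787 to 4.89, that in the share of the most abundant segment from -6.05 to -0.14 percentage points, and that in the kappa V percent of all FPKM from -1.77 to 1.04. The number of fragments behind a value is unknown, so no counting error can be given.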
